A study of Mus musculus with 2 samples.

Results

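The genes described here are 9 that encode platelet granule proteins, adhesion receptors and a platelet signalling protein, products of the megakaryocyte lineage, which shares its progenitor with the red cell lineage. They are Pf4, Ppbp, Itga2b, Gp1ba, Gp1bb, Gp5, Gp9, Vwf and Plek, listed by symbol. No rule was set on their levels, but they were chosen with earlier results of these data known. All 9 were found among the 43346 measured genes. Their RNA was measured in MEL cells, an established mouse erythroleukemia line whose cells stand at the stage of red cell precursors. The labels give 1 group of 2 biological replicates, each a biosample of its own, whose polyadenylated RNA was sequenced single-end, and name no treatment. Age is given as unknown and sex as not collected. There was thus no condition to compare, and the data describe levels in 1 leukemic line and the spread between its replicates.

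Megakaryocytes bud off platelets, which carry their cargo in alpha granules and stop bleeding by sticking to exposed vessel walls. The glycoproteins of the GPIb-IX-V receptor, encoded by Gp1ba, Gp1bb, Gp9 and Gp5, catch von Willebrand factor, the product of Vwf. Integrin alphaIIb, the product of Itga2b, pairs with integrin beta3 to bind fibrinogen, and platelet factor 4 (Pf4) and pro-platelet basic protein (Ppbp) are chemokines released from the granules. Early megakaryocytes and red cell precursors use many of the same transcription factors, GATA1 and its cofactor FOG1 among them.

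Replicate 2 held 79923143 and replicate 1 held 67735380 expected counts, which are estimated reads per gene. A count of 0 allows up to 3 counts, or 3.75e-06% of the reads of replicate 2 and 4.43e-06% of those of replicate 1, and covers counting error only. Levels are TPM (transcript abundance corrected for length and scaled to the same sum in each library), means are given with the SD of the replicates (n = 2), and positions are on the mm10 build. Of 16 red cell genes, 15 reached 1 TPM in both replicates, against 2 of 12 myeloid and 1 of 9 endothelial markers and 0 of 6 markers of early progenitors. Over protein-coding genes the share was 46.8%. Some early progenitor markers lay near the limit of 1 TPM. Kit was at 0.83 TPM in replicate 2 and 1.27 in replicate 1, Hlf at 1.11 and 0.91 and Slamf1 at 0.95 and 1.06. Others lay far below it, with Cd34 at 0.1 and 0.14, Flt3 at 0.08 and 0.05 and Procr at 0 counts in both.

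Of the 9 platelet genes, 6 reached 1 TPM in both replicates and 4 reached 10 TPM. Over all genes, 26.9% reached 1 TPM in both, and over protein-coding genes 46.8% did, while 31.4% of protein-coding genes reached 10 TPM. The median of the 9 genes was 8.57 TPM in replicate 2 and 3.39 in replicate 1, against 0.5 and 0.44 TPM over the 21474 protein-coding genes and 61 and 50.7 TPM over the 16 red cell genes. Levels ran from Pf4 at the top, at percentile 96.1 of protein-coding genes, to Ppbp at the bottom, at percentile 45. In these bulk libraries fewer cells that carry an RNA and less of that RNA per cell cannot be told apart.

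**Figure D1:**
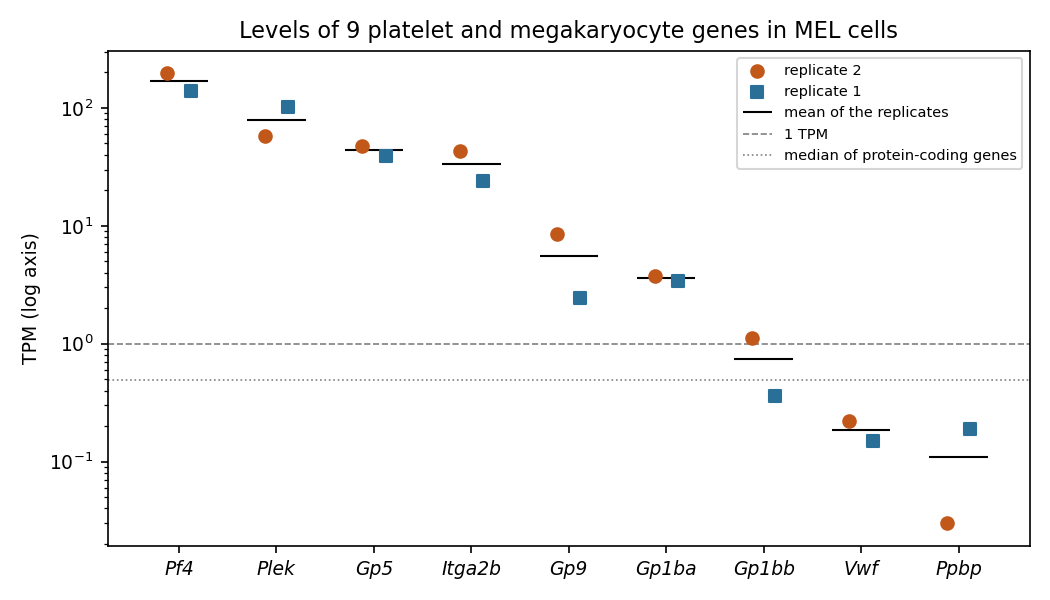
Level of each of the 9 genes in TPM on a log axis, with circles for replicate 2, squares for replicate 1 and bars for their mean. The dashed line marks 1 TPM and the dotted line the median of protein-coding genes. Gp1bb, Vwf and Ppbp lie below 1 TPM in at least 1 replicate.

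In order of mean TPM the genes were Pf4, Plek, Gp5, Itga2b, Gp9, Gp1ba, Gp1bb, Vwf and Ppbp. The replicates of neighbours in this order did not overlap in 5 of 8 steps. They overlapped between Gp5 and Itga2b, between Gp9 and Gp1ba and between Vwf and Ppbp, so the differences between these neighbours were not larger than the spread of the replicates. Pf4 alone made up 54.8% of the summed TPM of the 9 genes in replicate 2 and 44.8% in replicate 1.

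The granule chemokine genes Pf4 and Ppbp lie side by side on chromosome 5 and stood at opposite ends of the list. Pf4 (ENSMUSG00000029373.6; chromosome 5, 90772435-90773383, plus strand) was at 197 TPM in replicate 2 and 139 TPM in replicate 1, with 6283 and 3471 expected counts. Its mean was 168 ± 41 TPM (SD, n = 2). Ppbp (ENSMUSG00000029372.6; chromosome 5, 90768518-90770063, plus strand) stood at 0.03 and 0.19 TPM, with 2 counts in replicate 2 (exact Poisson 95% interval 0.242 to 7.22) and 9 in replicate 1 (4.12 to 17.1). The gap between these genes is 2371 bp, and both are read from the same strand. Per unit of length Pf4 exceeded Ppbp 6005-fold in replicate 2 (95% counting interval 1662 to 49590) and 737-fold in replicate 1 (388 to 1614).

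Like Ppbp, the other CXC chemokine genes of the cluster were at or near 0. Cxcl5 on the lower side of Ppbp had 0 counts in both replicates, and Cxcl3, which lies 12719 bp from Pf4 on the other side, had 1 count in each. Cxcl15, Cxcl1 and Cxcl2, within 131.4 kb of the start of Pf4, had 0 counts in both. The receptor genes of the same ligand family were low too: Cxcr2, whose product binds the processed form of Ppbp in human, had 0.09 TPM in replicate 2 and 0.24 in replicate 1, and Cxcr3 had 0.03 and 0. Of the 10 listed chemokine and chemokine receptor genes other than these 2 members, 0 reached 1 TPM in both replicates. Within this cluster the counts of replicate 2 and replicate 1 were thus nearly all on Pf4.

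**Figure D2:**
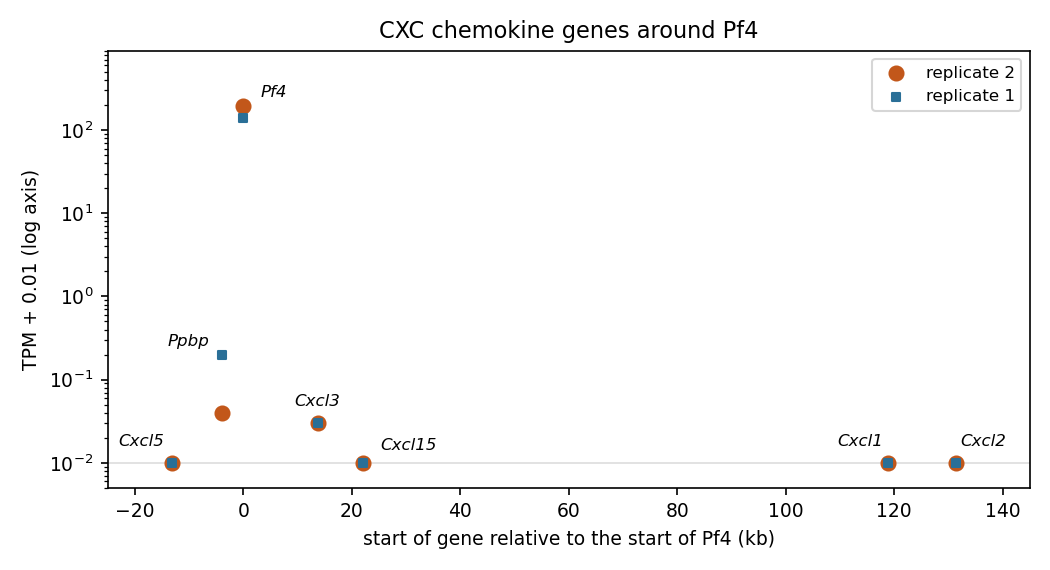
Levels of the CXC chemokine genes near Pf4, as TPM + 0.01 on a log axis, against the distance of each gene's start from that of Pf4 in kb (circles, replicate 2; squares, replicate 1). Pf4 stands at 197 and 139 TPM and of the other 6 genes drawn, all within 131.4 kb of the start of Pf4, Ppbp is the highest, at 0.03 and 0.19 TPM.

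The promoter windows of this neighbouring pair are shown because the genes share a locus but not a level. Each holds the 250 bases before and the 50 bases from the start of the gene in RefSeq (GRCm38.p6, the mm10 assembly), at chr5:90772185-90772484 for Pf4 and chr5:90768268-90768567 for Ppbp, both on the plus strand. Capitals mark the letters AGATAA or TGATAA, read by GATA factors (TTATCT or TTATCA on the other strand), and GGAAGT, read by ETS factors (ACTTCC on the other strand).
Pf4: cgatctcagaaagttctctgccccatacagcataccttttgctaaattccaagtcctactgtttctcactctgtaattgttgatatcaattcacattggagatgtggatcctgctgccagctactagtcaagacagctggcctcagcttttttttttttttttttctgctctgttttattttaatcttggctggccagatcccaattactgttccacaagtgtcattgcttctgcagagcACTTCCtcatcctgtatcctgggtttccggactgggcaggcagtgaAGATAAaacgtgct
Ppbp: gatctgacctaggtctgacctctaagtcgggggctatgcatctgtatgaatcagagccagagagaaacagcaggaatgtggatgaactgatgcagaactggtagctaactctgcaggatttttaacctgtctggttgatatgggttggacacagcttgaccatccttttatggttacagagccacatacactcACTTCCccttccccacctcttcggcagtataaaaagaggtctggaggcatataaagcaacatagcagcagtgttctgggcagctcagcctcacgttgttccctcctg
In Pf4, ACTTCC starts 10 bases before the gene's first base and AGATAA starts at base 37 of the transcript. The Ppbp window holds ACTTCC, starting 57 bases before the first base, and none of the GATA letters. A match is a description of the letters in the window and does not show that a factor is bound there.

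The 4 subunit genes of the GPIb-IX-V receptor, whose products form 1 complex on platelets, did not stand at equal levels. Gp5 was the highest, Gp9 and Gp1ba were lower, and Gp1bb was the lowest. Gp5 (ENSMUSG00000047953.6; chromosome 16, 30307685-30310779, minus strand), encoding the subunit that is cut by thrombin, was at 47.8 TPM in replicate 2 and 39.5 TPM in replicate 1 (mean 43.6 ± 5.89, SD, n = 2). Gp1ba (ENSMUSG00000050675.7; chromosome 11, 70639122-70642036, plus strand) encodes the subunit that holds von Willebrand factor. It stood at 3.77 and 3.39 TPM (3.58 ± 0.269). Gp5 exceeded Gp1ba 12.7-fold per length in replicate 2 (95% counting interval 11.6 to 13.8) and 11.6-fold in replicate 1 (10.5 to 12.9).

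Gp9 (ENSMUSG00000030054.3; chromosome 6, 87778072-87779768, plus strand), a small subunit needed for the complex to reach the surface, was at 8.57 TPM in replicate 2 and 2.43 TPM in replicate 1 (5.5 ± 4.34, SD, n = 2). Its position relative to Gp1ba depended on the replicate, at 2.27-fold of Gp1ba in replicate 2 and 0.717-fold in replicate 1. Gp1bb (ENSMUSG00000050761.3; chromosome 16, 18620317-18622403, minus strand), the subunit joined to GPIb alpha by disulfide bonds, stood at 1.12 and 0.36 TPM (0.74 ± 0.537). It was below Gp1ba in both replicates, at 0.297-fold (0.242 to 0.363) in replicate 2 and 0.106-fold (0.0709 to 0.154) in replicate 1. Gp1bb was also below Gp9 in both, at 0.131-fold and 0.148-fold. So, as quantified, Gp5 was above and Gp1bb below Gp1ba in each library, while the order of Gp9 and Gp1ba differed between the libraries.

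Gp1bb overlaps Sept5, a septin gene on the same strand (18620502-18629954), which held 2719 counts in replicate 2 and 1257 in replicate 1 against 119 and 29.8 at Gp1bb. The posterior SD of the count, the authors' measure of uncertain read assignment, was 10.7 in replicate 2 and 3.91 in replicate 1 for Gp1bb and equally for Sept5. All Gp1bb reads were put on Gp1bb-202, which has 1847 nt in the files, whereas GENCODE M21 gives it a span of 1324 bp, so the annotation releases differ in this model. The transcript Gp1bb-201 of 645 nt was listed at 0, and the part of Sept5 in the Gp1bb value was not tested. The TPM of Gp1bb and its ratios to Gp1ba and Gp9 rest on an effective length of 1803 for Gp1bb. The same reads on a shorter model would give higher values, so the place of Gp1bb as the lowest subunit gene depends on this model. Levels with another model were not tested, and the counting intervals do not cover this. Gp5 begins 1643 bp beyond the end of Atp13a3, a transporter gene read from the same strand, which was at 56.4 TPM in replicate 2 and 119 TPM in replicate 1. Atp13a3 was thus higher in replicate 1 (log2 ratio of replicate 2 over replicate 1 -1.18) and Gp5 was higher in replicate 2 (0.27).

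The windows of Gp5 (chr16:30310732-30311031) and Gp1bb (chr16:18622354-18622653), both on the minus strand and written in the direction of the gene, are shown as those of the highest and the lowest subunit gene. The Gp1bb window is set on 18622403, the start in M21 of Gp1bb-201, which was listed at 0. Gp1bb-202, on which all reads were put, starts at 18621640 in M21, outside the window. Capitals mark the same letters as above.
Gp5: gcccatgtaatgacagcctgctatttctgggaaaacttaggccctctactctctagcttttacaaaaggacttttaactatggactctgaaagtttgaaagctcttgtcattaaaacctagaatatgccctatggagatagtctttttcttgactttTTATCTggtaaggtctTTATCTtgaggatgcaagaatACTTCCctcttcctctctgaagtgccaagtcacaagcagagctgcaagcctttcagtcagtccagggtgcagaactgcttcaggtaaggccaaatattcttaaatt
Gp1bb: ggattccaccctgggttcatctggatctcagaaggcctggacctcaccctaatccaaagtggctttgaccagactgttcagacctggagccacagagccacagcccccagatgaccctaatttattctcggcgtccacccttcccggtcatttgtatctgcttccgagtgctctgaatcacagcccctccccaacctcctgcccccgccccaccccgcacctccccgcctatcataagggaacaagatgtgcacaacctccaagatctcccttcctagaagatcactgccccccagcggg
Gp5 holds TTATCT at 93 and at 77 bases and ACTTCC at 56 bases before its first base, and Gp1bb holds none of the searched letters. RefSeq windows were at hand for 8 of the 9 genes, all but Vwf. AGATAA or TTATCT was found in 2 of these 8 (Pf4 and Gp5), against 11.2% of all 32851 windows. TGATAA or TTATCA was found in 1 of 8, at 2 places in Gp1ba, against 9.05%. GGAAGT or ACTTCC was found in 5 of 8 (Pf4, Ppbp, Itga2b, Gp5 and Gp9), against 23.8%. The genes with and without these letters included both high and low members: Plek, at a mean of 79.6 TPM, had none, and Ppbp had GGAAGT letters on the other strand.

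Itga2b (ENSMUSG00000034664.9; chromosome 11, 102453297-102470122, minus strand), the integrin alpha subunit and a defining surface protein of the megakaryocyte lineage, was at 42.9 TPM in replicate 2 and 24.1 TPM in replicate 1 (33.5 ± 13.3, SD, n = 2). Most of this level lay on transcripts annotated without a coding sequence. The only protein-coding transcript of 10, Itga2b-201 (3437 nt), held 25.2% of the gene's TPM in replicate 2 and 28.8% in replicate 1, which is 10.8 and 6.94 TPM. Of the reads themselves it held 59.3% and 66.8%. The 9 processed transcripts, of 268 to 2880 nt, took 74.8% and 71.2% of TPM and 40.7% and 33.2% of counts. The highest share among them was that of Itga2b-207 (623 nt, at the 3′ end of the gene), which held 29.6% and 29.4% of TPM in replicate 2 and replicate 1. Itga2b-210 (968 nt) differed most between libraries, with 18% in replicate 2 and 1.74% in replicate 1. Single-end reads over shared exons were divided among these models by the authors' quantification. The gene level of Itga2b sums its transcripts, so it cannot lie below that of the coding transcript.

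**Figure D3:**
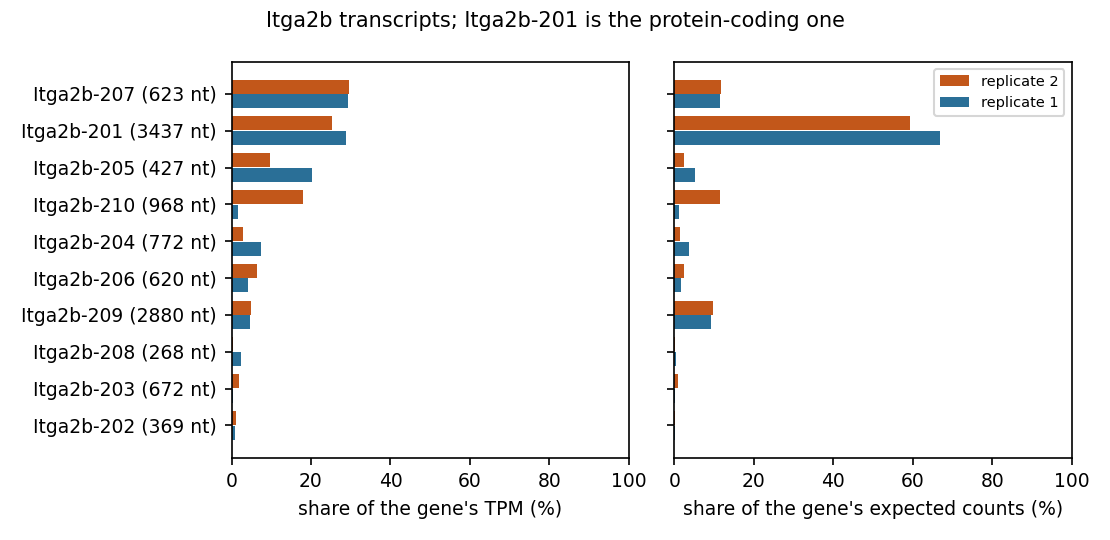
Share of each Itga2b transcript in the gene's TPM (left) and expected counts (right), in percent, with the length of each transcript in nt (upper bar, replicate 2; lower bar, replicate 1). Itga2b-201, the protein-coding transcript, holds most of the counts but 25.2% and 28.8% of TPM.

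The partner of alphaIIb on platelets, integrin beta3, was nearly without RNA. Itgb3 was at 0.25 TPM in replicate 2 and 0.14 TPM in replicate 1, with 83 and 38 counts. Itga2b exceeded it 174-fold per length in replicate 2 (95% counting interval 140 to 220) and 167-fold in replicate 1 (121 to 238). In TPM with a pseudocount of 0.1, which lowers the ratio, the mean log2 ratio was 6.80 ± 0.20 (SD, n = 2), or 111-fold. With the coding transcript alone in place of the whole gene, the mean log2 ratio of TPM (pseudocount 0.1) was 4.92 ± 0.06 (SD, n = 2), or 30.2-fold. Itgav, whose product is the other alpha subunit that pairs with beta3, stood at 5.38 and 6.99 TPM. Itga2b exceeded Itgav 7.97-fold and 3.44-fold per length as a gene. With the coding transcript alone the log2 ratio was 0.99 in replicate 2 and -0.01 in replicate 1, which did not stand apart. Itgb3 and Itgav were taken as whole genes throughout, so only the level of Itga2b was changed. Itga2b exceeded Itgb3 in both libraries whichever Itga2b level was used. Itga2b and Itgav stood apart only with Itga2b taken as a whole gene.

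Vwf (ENSMUSG00000001930.13; chromosome 6, 125546774-125686679, plus strand), the adhesive ligand of the GPIb receptor, which endothelial cells also make, was at 0.22 TPM in replicate 2 and 0.15 TPM in replicate 1 (0.185 ± 0.0495, SD, n = 2). In posterior mean TPM, another of the authors' estimates, its mean was 0.4. These levels rest on 39 counts in replicate 2 (exact Poisson 95% interval 27.7 to 53.3) and 19 in replicate 1 (11.4 to 29.7). The files hold a pair of long models of near-equal length. Vwf-203, of 8834 nt, was given 16.3 of these counts in replicate 2 and 0 in replicate 1, and the other, of 8817 nt, was given 0.03 and 8.69. Long models thus held reads in both replicates, and the shorter Vwf-201 was given 8.17 and 4.36. The 9 endothelial markers had a median of 0.04 TPM in each replicate. Sele and Emcn had 0 counts in both and Cdh5 had 1 and 0. Eng had 124 counts in replicate 2 and 48 in replicate 1, Tek 54 and 53, Kdr 14 and 12, Pecam1 10 and 24 and Tie1 4 and 0. Nos3, at 4.72 and 2.2 TPM, was the 1 marker above 1 TPM. Of the genes flanking Vwf, the ion channel gene Ano2 had 0 counts and the tetraspanin gene Cd9 stood at 8.24 and 7.53 TPM.

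Plek encodes pleckstrin, the main substrate of protein kinase C in platelets, and is also expressed in leukocytes. The gene (ENSMUSG00000020120.11; chromosome 11, 16971206-17052381, minus strand) was at 58.1 TPM in replicate 2 and 101 TPM in replicate 1 (79.6 ± 30.3, SD, n = 2), and had the most reads of the 9 genes, 13819 and 18846. Plek and Ppbp were the only members with a lower level in replicate 2 than in replicate 1. Of its 3 transcripts, Plek-202, which begins at 17008702, held 99% of TPM in replicate 2 and 98.2% in replicate 1. Plek-201, which begins farther upstream at 17052381, held 0.516% and 1.69%. Cnrip1, a cannabinoid receptor interacting protein gene on the opposite strand that overlaps the upstream start of Plek, had 0 and 1 counts. Plek2, the paralog of Plek known from red cell precursors, stood at 13.4 and 11 TPM. Plek exceeded Plek2 4.34-fold per length in replicate 2 (95% counting interval 4.09 to 4.6) and 9.17-fold in replicate 1 (8.54 to 9.87).

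Of 9 pairs of genes that were compared, 8 stood apart, meaning that the log2 ratio of TPM had 1 sign in both libraries and a mean size beyond 1.61 (3.06-fold). Between the replicates, 95% of 12325 genes lay within this limit. The limit thus describes the same gene in both libraries, not different genes, and the share of other gene pairs beyond it was not computed. The pairs were also chosen with earlier results of these data known, so the count of 8 is a description only. The pair that did not stand apart was Gp9 over Gp1ba, at 0.35 ± 1.15 (SD, n = 2). Pf4 over Itga2b was at 2.36 ± 0.23 and, with the coding transcript of Itga2b alone, at 4.24 ± 0.09. With 2 replicates an exact two-sided sign-flip test cannot give a p below 0.5, so no p is given.

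Other genes of the platelet programme were read from 7 lists of 131 genes, none of them members. Of these, 83 (63.4%) reached 1 TPM in both replicates. The median of all 131 was 10.4 TPM in replicate 2 and 9.95 in replicate 1. The lists split by role. Transcription factors, signalling proteins, the secretion machinery and the cytoskeleton were mostly above 1 TPM, while granule cargo and surface receptors were mostly below it. Cargo reached 1 TPM in 2 of 14 cases and receptors in 7 of 24, against 17 of 19 genes of granule assembly and release, 22 of 28 signalling genes, 19 of 24 transcription factors and 11 of 13 cytoskeleton genes. The share of protein-coding genes at this level was 46.8%. Many genes of the lists with high shares also act in other blood cells and in most tissues, and no test of these counts was made. The lists were also chosen with earlier results of these data known, so the split by role is a description only.

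**Figure D4:**
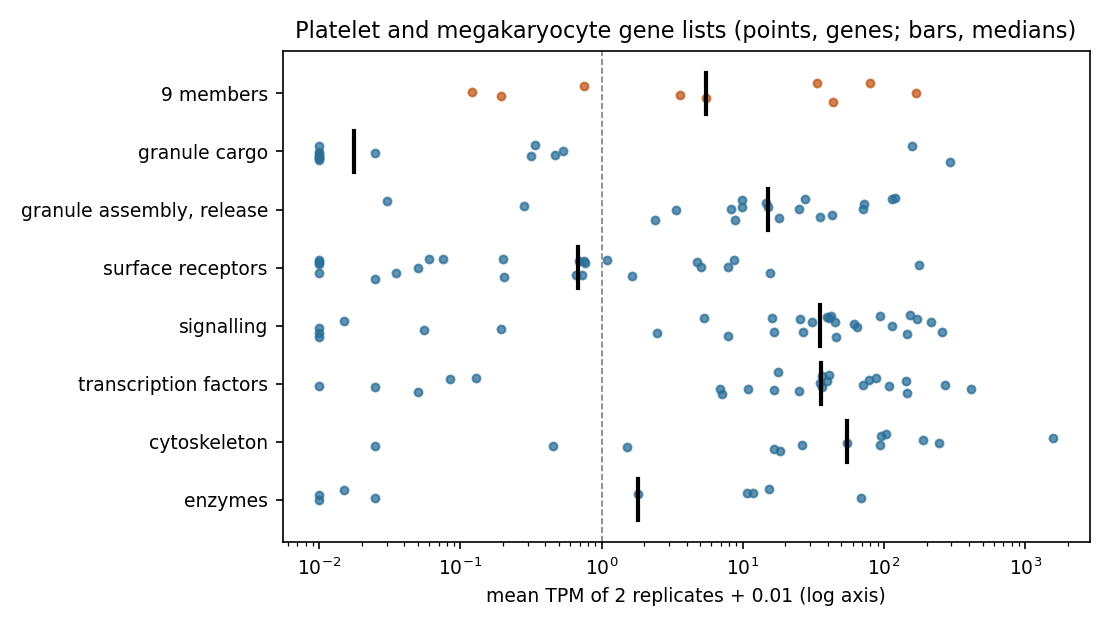
Mean TPM of 2 replicates + 0.01, on a log axis, for the 9 members and for each gene of 7 lists of platelet and megakaryocyte genes. Bars mark list medians and the dashed line marks 1 TPM. The granule cargo list has a median under 0.01 TPM, and the cytoskeleton list has the highest median at 55 TPM.

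The granule cargo genes that reached 1 TPM were Srgn, the proteoglycan on which Pf4 is packed, at 123 TPM in replicate 2 and 190.4 in replicate 1, and Tgfb1, at 360 and 225 TPM. The clotting factor genes F5 and F13a1, the adhesion genes Thbs1, Mmrn1 and Selp, and Pdgfa and Serpine2 had 0 counts in both replicates. Pdgfb at 0.53 and 0.52 TPM, Cd63 at 0.51 and 0.41, Timp1 and Clu were between. Pf4 and Srgn thus stood high, while 7 of the 14 cargo genes other than the members were at 0. The genes that build and release granules were led by Stxbp2, at 142 and 97.5 TPM, and Vamp8, at 136 and 93.2, both of the membrane fusion machinery. Snap23, Unc13d, Ap3b1 and Dtnbp1 followed, and the nucleotide sugar transporter gene Slc35d3 at 0.01 and 0.03, Rab27b at 0.21 and 0.33 and Lyst at 1.86 and 2.87 TPM were the lowest.

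Among the surface receptors the collagen receptor gene Gp6, the podoplanin receptor gene Clec1b, the ADP receptor gene P2ry12 and the collagen integrin gene Itga2 had 0 counts in both replicates. The receptors above 1 TPM were led by Itgb1, a widely expressed integrin subunit, at 89.9 and 266 TPM, and the prostacyclin receptor gene Ptgir at 17.9 and 13 TPM. The ADP receptor gene P2ry1 at 6.94 and 10.5, Cd9, the ATP receptor gene P2rx1 at 6.07 and 4.09 and Itga6 came next. Gp6, Clec1b, P2ry12 and Itga2 were thus without a read while Gp5 stood at 47.8 and 39.5 TPM.

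The signalling list was led by kinase, G protein and integrin activation genes. Fermt3, encoding kindlin-3, was at 227 TPM in replicate 2 and 117 TPM in replicate 1, Rasgrp2 at 177 and 112, Rap1b at 70.1 and 156.4, Gnai2 at 254 and 176 and Btk at 220.3 and 297. Tln1, encoding talin, was at 111 and 196 TPM, but its counts were higher in replicate 2, with a log2 ratio of 0.62, so its direction depended on the unit. Prkcb, Vav3 and Gnaz had 0 counts in both. The transcription factors shared with red cells led their list, with Ldb1, Gata1, Lmo2, Zfpm1, Gfi1b and Lyl1 between 61.9 and 483 TPM. Mecom, at 0 counts, and Mef2c, at 0.01 and 0.02 TPM, were the lowest. Of the proplatelet cytoskeleton, profilin (Pfn1) was highest at 1812 and 1338 TPM. Tubb1, the beta tubulin of the platelet rim, stood at 1.98 and 1.04, Tpm4 at 0.28 and 0.61 and Tmsb4x at 0 and 0.03. Of the enzymes, 5 of 9 reached 1 TPM, among them Alox5ap at 74.8 and 63.1, the cyclooxygenase gene Ptgs1 at 16 and 7.46 and the thromboxane synthase gene Tbxas1 at 2.04 and 1.59 TPM, while Alox12 had 3 and 2 counts and Pde3a and Mgll had 0.

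Between the replicates, 8 of the 9 genes had the 20 counts needed to compute a ratio, and Ppbp did not. Scaled for library size by TMM, 2 of these 8 were over 2-fold higher in replicate 2 and 0 were over 2-fold higher in replicate 1. Over all 15251 genes with 20 counts, 20.4% differed over 2-fold, 8.01% being higher in replicate 2 and 12.4% in replicate 1. The members past the limit were Gp9, with 387 counts in replicate 2 and 86 in replicate 1 and a log2 ratio of 1.80 (95% counting interval 1.47 to 2.16), and Gp1bb, at 1.61 (1.04 to 2.26). The others lay between -0.81 (-0.84 to -0.78), for Plek, and 0.81 (0.72 to 0.89), for Itga2b. For Gp1ba at 0.13 (-0.05 to 0.32) and Vwf at 0.66 (-0.15 to 1.55) the counting interval held 0. With 1 library on each side these are differences between libraries and carry no p.

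The ratio between the replicates moved with the GC content of the transcripts. In the fifth of genes with the lowest GC content the median log2 ratio was -0.89, and in the fifth with the highest it was 0.75. The members range from 41.8% GC for Plek to 62% for Gp1bb. Genes within 2 percentage points of Plek had a median ratio of -0.82, next to -0.81 for Plek itself, and those near Itga2b had 0.74, next to 0.81. Genes near Vwf in GC content had 0.66, equal to Vwf. Above the median of genes of like GC content stood Gp9 by 1.06, Gp1bb by 0.76 and Pf4 by 0.46 on the log2 scale, while Gp5 stood below it by 0.53 (difference -0.53). The part of GC content in the members' ratios was not tested beyond this subtraction. Gp9 is the member whose difference exceeded 2-fold with and without this subtraction, though at 1.06 it lay just past the log2 limit of 1. Of genes of like GC content, 22.1% near Gp9 and 31.1% near Gp1bb differed over 2-fold between the replicates, in either direction.

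**Figure D5:**
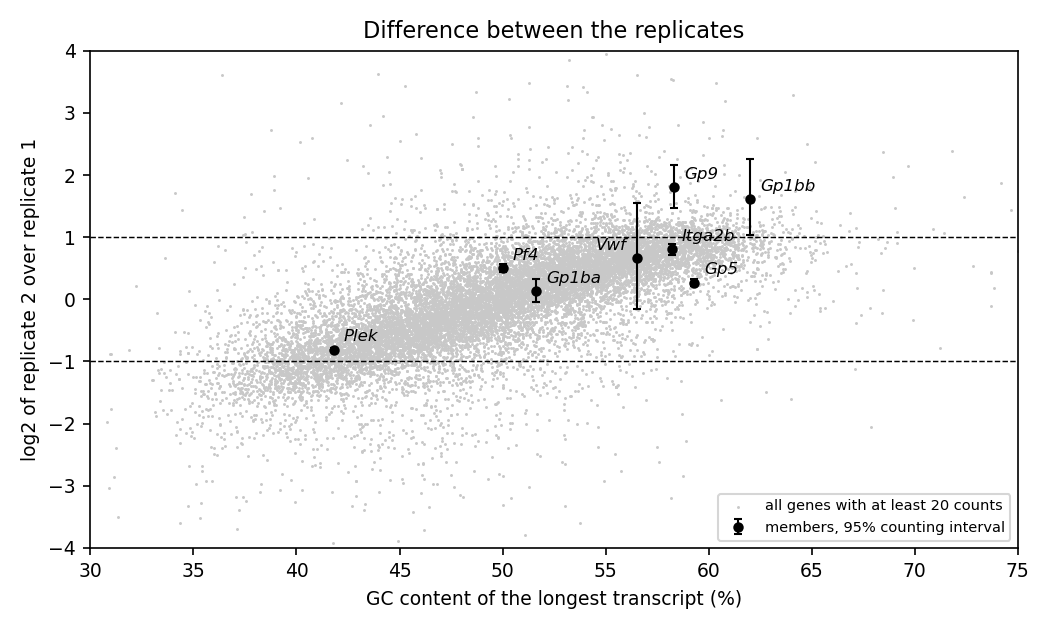
Log2 ratio of replicate 2 over replicate 1, scaled by TMM, against the GC content of the longest transcript of each gene in percent. Grey dots are genes with at least 20 counts and a known GC content, within the range drawn, black points are 8 members with 95% counting intervals, and dashed lines mark 2-fold. Gp9 and Gp1bb lie above the upper line, at 1.80 and 1.61.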

How the data were processed

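Gene and transcript tables of 2 MEL replicates were analysed as deposited. Per the accompanying text files, the authors aligned reads to mm10 and quantified them on annotation M4. Which aligner and which quantifier they used, and whether strand was used, is not given in the sources used here. Values of genes overlapping on opposite strands, and of genes with near-identical copies, are therefore uncertain. Expected counts, as deposited, are estimated reads. The deposited TPM values correct for effective length and share 1 sum per library. In the FPKM values the authors scaled by length and depth. The deposited score columns hold the posterior SD of the count and bounds of TPM, which describe read assignment within 1 library.

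Gene IDs were matched to GENCODE M21 (mm10) for symbols and positions (42462 of 43346 genes), and promoter windows were taken from RefSeq (GRCm38.p6). The 97 spike-ins and 26248 short numeric features (0.131% of counts in replicate 2, 0.0574% in replicate 1) were left out of tests. The short features stay in the deposited TPM sum, with 6.24% of it in replicate 2 and 2.93% in replicate 1. Rounded expected counts with a sum of at least 20 were scaled by TMM (edgeR 4.0.16, R 4.3.3), with a prior count of 0.5. GC content came from the longest M21 transcript (99% of those genes). Counting intervals are exact 95% Poisson or binomial intervals. The steps were checked on simulated data. Python 3.11.15, scipy 1.17.1 and matplotlib 3.10.9 were used.

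Genes were named from a set fixed by rule. It held all members, both genes of a pair, up to 6 highest and 3 lowest of each list, and flanking or overlapping genes. Not every list, flanking or overlapping gene of this set was named. Further genes tied at 0 were named after their values were seen. Members, lists and pairs were chosen with earlier results of these data known. Alternatives were other TPM limits, FPKM, posterior mean TPM, TPM rescaled to genes alone, other pseudocounts, DESeq2 1.42.0 size factors, library totals, other count and fold limits and each replicate alone. A GC correction and the coding transcript of Itga2b alone were added after seeing the data.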

Additional observations from a re-analysis of the deposited data

How the results depend on the processing

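Of the 9 members, between 4 (TPM of at least 5) and 7 were detected under the alternatives, against 6 as reported. Leaving out a replicate gave 6 to 7, since Gp1bb reached 1 TPM in replicate 2 alone. The listed platelet genes detected numbered 73 to 90 (83 as reported), and 83 to 84 with a replicate left out. Members over 2-fold apart between replicates numbered 5 at a 1.5-fold limit and 1, Gp9, with the median of genes of like GC content subtracted, an alternative chosen after seeing the data. Without a count filter there were 3, Ppbp being added, and 2 with DESeq2 size factors, library totals, at least 100 counts or deposited TPM. A ratio between the replicates cannot be had with a replicate left out. The pairs standing apart numbered 8 with a pseudocount of 1, FPKM, posterior mean TPM or a limit from genes of at least 10 TPM and with either replicate left out, and 7 with the coding transcript of Itga2b alone. Of 36 recomputed member levels, 35 moved by less than 1 SD of the replicates. With 2 replicates a single replicate always lies within 1 SD of the mean, so this says nothing of stability for those. The exception was Vwf, at 0.4 in posterior mean TPM against 0.185 in TPM. Depth limits Ppbp, Vwf and Itgb3, which rest on few counts. No paired analysis was possible because there is 1 group.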
